A study of Mus musculus with 2 samples.

Results

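The nuclear subunits of respiratory complex I are the proteins of the NADH:ubiquinone oxidoreductase that the cell nucleus encodes. Their genes were taken by name: every gene called Ndufa, Ndufb, Ndufc, Ndufs or Ndufv with a number, and Ndufab1, was kept if it had a protein-coding transcript, and the assembly factors called Ndufaf were left out. This gave 38 genes of the 55536 in the tables, on 15 chromosomes, 2 of them (Ndufa1 and Ndufb11) on X. Total RNA from gastrocnemius, a calf muscle, had been sequenced in 2 adult female mice aged 8 to 10 months; each animal gave a stranded library, made from 300 ng after reduction of ribosomal RNA and with ERCC spike-ins added. Both mice were B6CASTF1/J, the first-generation cross of B6 and CAST, and no treatment is named in the labels. One donor identifier is shared by both in the labels, which otherwise give different animal numbers and tissue samples; they were counted as 2 animals, replicates 1 and 2 of 1 group. With 1 group there was nothing to test between groups, so values are given for each animal with the mean ± SD (n = 2) and no p-value.

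Complex I takes electrons from NADH made in the mitochondrial matrix, passes them along a flavin and a chain of iron-sulfur clusters to ubiquinone, and pumps protons across the inner membrane. It is L-shaped: a matrix arm carries out the electron transfer and a membrane arm pumps. The core subunits do the chemistry, and those of the membrane arm are encoded by mitochondrial DNA. The many accessory subunits surround the core and are needed for its assembly and stability. Muscle fibres, which turn over ATP quickly, hold large amounts of it.

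The libraries held 42714567 and 43421652 expected counts, of which the complex I genes took 142012 (0.332%) and 151697 (0.349%). An expected count is an estimated number of reads, in which a read that fits several transcripts is shared out among them. Levels are given as TPM, a unit of transcript abundance scaled to the same total in every library after division by length. Nuclear protein-coding genes held 48.2% of TPM in replicate 1 and 43.3% in replicate 2, which lowers TPM values in replicate 2 against replicate 1. The deposited data hold 2 quantifications: the first, used unless another is named, was derived from alignments to transcripts and the second from reads without them, per the deposited descriptions. All 7 muscle fibre markers examined (Acta1, Ckm, Myh4, Ttn, Mylpf, Tnnt3, Pvalb) were present, with a summed level of 100097 TPM in replicate 1 and 87861 TPM in replicate 2. Of 4 heart markers, Myh6 alone reached 1 TPM in both animals, at 55.85 and 53.15 TPM (a mean of 20.87 TPM by the second quantification). Tnni3 had 0.84 and 1.26 TPM, while Nppa and Myl7 stood at 0.16 TPM or less.

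Promoter sequences were available from RefSeq (GRCm38.p6, the assembly also called mm10) for 33 of the 38 genes, in 35 windows from 250 bases before to 50 after the start of transcription. They are shown first because letters around the start codon recurred in several of the genes. The run AAGATGGC, which resembles the binding site of the factor YY1 and holds an ATG, was found in 7 of the 35 windows (20.0%), against 2.75% of all 32851 windows in the table. Both strands were searched. All 7 matches lay on the strand of the gene and covered its annotated start codon, 22 to 38 bases after the start of transcription. How often matches in the windows of other genes do so was not counted. The bases around each of the 7 matches are printed in the direction of the gene, with the run in capitals.
Ndufa3: gccgccaagaacAAGATGGCcgggagtaag
Ndufa9: gcattgtgggagAAGATGGCggccgccgtc
Ndufb8: gcggagaaggtgAAGATGGCtgcc
Ndufc1: agcctgcggaacAAGATGGCgccgtccgta
Ndufs4: tttgcctacaggAAGATGGCggcggtc
Ndufs6: agggtcaccggcAAGATGGCggcggtgct
Ndufs7: aaggccgaggccAAGATGGCggcgctggcg

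These 7 genes came from every arm of the complex. Ndufs7 is a core subunit, Ndufa9, Ndufs4 and Ndufs6 sit on the matrix arm, and Ndufa3, Ndufc1 and Ndufb8 belong to the membrane arm. Their mean levels ran from 143 TPM (Ndufa9) to 483 TPM (Ndufa3).

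The whole windows of Ndufa3 and Ndufc1, the genes with the highest levels among the 7, and the part of the Ndufb4 window before the start of transcription are printed next. Ndufb4 is shown because it held the most copies of a second run, CGCANGCG, which resembles the site of the factor NRF1. Capitals mark AAGATGGC in the first and second and CGCANGCG in the last.
Ndufa3, chr7:3617123-3617422, plus strand: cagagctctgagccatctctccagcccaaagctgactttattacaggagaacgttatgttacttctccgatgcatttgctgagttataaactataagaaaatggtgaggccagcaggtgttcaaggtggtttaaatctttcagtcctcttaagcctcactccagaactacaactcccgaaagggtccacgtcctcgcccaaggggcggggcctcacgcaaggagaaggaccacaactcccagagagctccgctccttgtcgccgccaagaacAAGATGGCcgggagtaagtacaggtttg
Ndufc1, chr3:51408906-51409205, minus strand: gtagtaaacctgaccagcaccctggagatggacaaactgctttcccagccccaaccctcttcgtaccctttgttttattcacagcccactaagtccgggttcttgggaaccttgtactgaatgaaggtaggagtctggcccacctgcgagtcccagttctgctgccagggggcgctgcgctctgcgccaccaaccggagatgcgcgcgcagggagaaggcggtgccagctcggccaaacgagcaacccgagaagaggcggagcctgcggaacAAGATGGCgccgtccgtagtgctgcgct
Ndufb4, chr16:37654369-37654618, minus strand: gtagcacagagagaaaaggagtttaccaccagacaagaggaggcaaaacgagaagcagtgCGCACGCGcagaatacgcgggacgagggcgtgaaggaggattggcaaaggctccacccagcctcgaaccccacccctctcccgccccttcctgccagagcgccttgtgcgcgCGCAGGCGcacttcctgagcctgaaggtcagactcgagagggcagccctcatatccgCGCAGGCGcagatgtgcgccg

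CGCANGCG was found in 12 of the 35 windows (34.3%, 10 genes), against 8.21% of all windows. The genes were Ndufa5, Ndufa6, Ndufa7, Ndufa8, Ndufa11, Ndufa12, Ndufb4, Ndufb10, Ndufs5 and Ndufs6. Ndufs6 alone held both runs.

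Of 4 other runs searched on both strands, CCGGAAG (as in sites of ETS factors) was in 11.4% of the complex I windows and 8.86% of all. AAGGTCA (as in sites of the estrogen-related receptors) was in 8.57% and 4.72%. The run GGGCGG, known as the GC box, was in 45.7% and 35.7%. The run TATAAA, known as the TATA box, was in 14.3% and 13.6%. The complex I windows had a median GC content of 59.0% against 52.7%, and an observed-to-expected CpG ratio above 0.6 in 82.9% against 35.8%. The shares were not matched for base composition, windows of 1 gene can overlap, and a match is a run of letters, not a measured binding site.

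Another protein-coding gene was transcribed away from within 1000 bp of the start of 9 of the 38 genes (23.7%), against 1489 of 22028 protein-coding genes (6.80%). The nearest was Rps28, a ribosomal protein gene whose start lay 10 bp from that of Ndufa7, with 301 and 273 TPM beside 177 and 161 TPM for Ndufa7. The other 8 neighbours stood at 29.4 TPM or less in each animal, while their complex I partners stood between 57.6 and 573 TPM. Morn5, which starts 52 bp from Ndufa8, was at 0.06 TPM in replicate 1 and had no count in replicate 2, beside 151 and 140 TPM for Ndufa8. Each of these 8 neighbours was thus lower than its complex I partner in both animals.

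All 38 genes reached 1 TPM in both animals, against 44.0% of the 22028 protein-coding genes. They summed to 8218 TPM in replicate 1 and 7691 TPM in replicate 2 (7954 ± 373), or 1.70% and 1.78% of the TPM of nuclear protein-coding genes. Most levels were close to each other: 29 genes lay between 100 and 300 TPM, 6 above and 3 below, with a median of 189 TPM. The middle of the distribution, from the lower to the upper quartile, ran from 136 to 247 TPM, a 1.81-fold range. The SD over the animals had a median of 4.87% of the mean and was at most 10.4%, so the order of genes far apart in level was the same in both animals, while neighbours in the order often overlapped. As a description across genes, the rank correlation of TPM between the animals was 0.992.

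**Figure D1:**
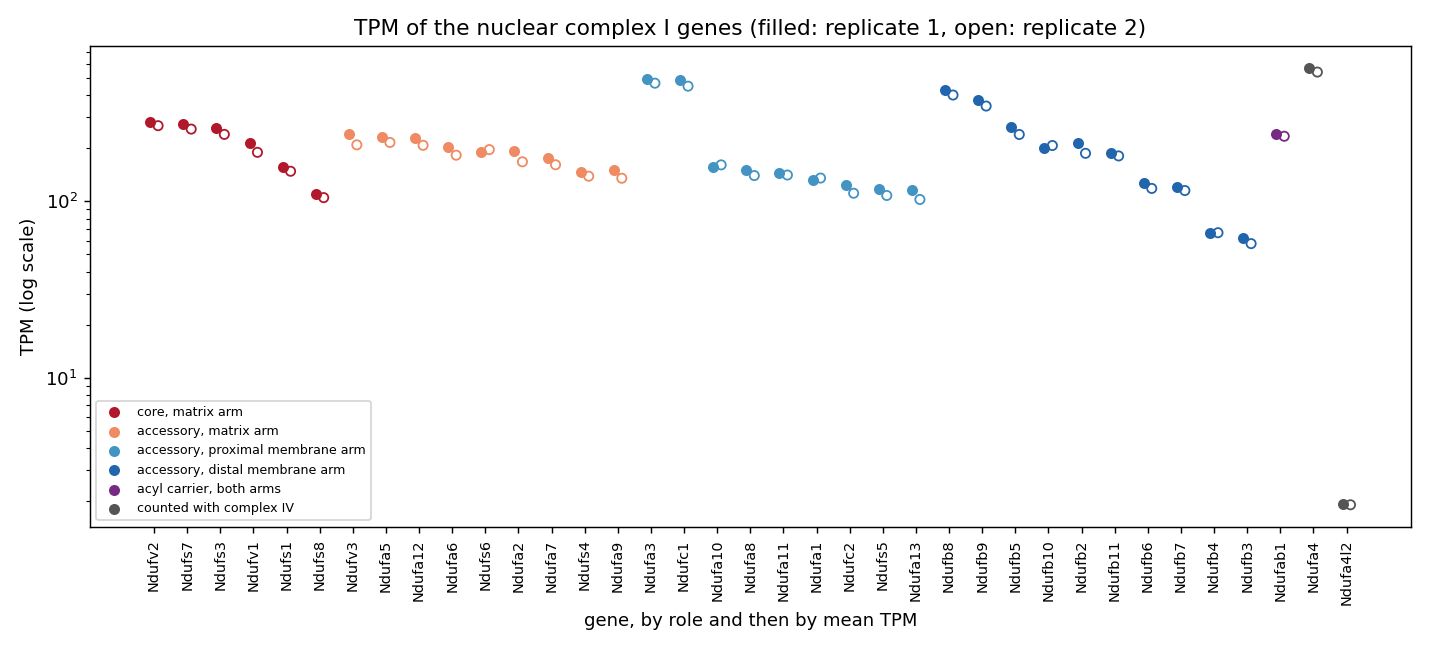
TPM (log axis) of 37 of the genes by place in the complex, with a filled point for replicate 1 and an open point for replicate 2. The genes lie between 57.6 and 573 TPM except Ndufa4l2, at 1.92 and 1.90 TPM, and the 2 animals lie close together for each gene.

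The 7 core subunits that the nucleus encodes summed to 1606 ± 75.2 TPM, with a median of 250 TPM. Ndufv2, an iron-sulfur subunit beside the flavin, had 284 TPM in replicate 1 and 269 TPM in replicate 2 (276 ± 10.4). Ndufs7, which carries the last iron-sulfur cluster before ubiquinone, had 275 and 257 TPM. Ndufs3 had 260 and 240 TPM. Ndufv1, which binds NADH and the flavin, had 213 and 190 TPM, below those 3 in both animals. Ndufs1, the largest core subunit and the holder of several iron-sulfur clusters, had 157 and 148 TPM. Ndufs8, another iron-sulfur subunit, was the lowest at 111 and 105 TPM, although core subunits are present in equal number in the enzyme. Ndufs1 had 10453 and 11323 expected counts, over transcripts with a mean length of 2475 bases in replicate 1.

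The 9 accessory subunits of the matrix arm were the most even group by both quantifications, from 143 to 226 TPM by the first, with an SD of 0.25 on the log2 scale against 0.58 for the core subunits (0.36 and 0.74 by the second). They summed to 1691 ± 105 TPM. Ndufv3, which sits at the NADH-oxidising tip, had 243 and 209 TPM. Ndufa5 had 232 and 216 TPM, and Ndufa12, a relative of the assembly factor Ndufaf2, had 228 and 208 TPM. These 3 overlapped between the animals. Ndufs6, a zinc-binding subunit, had 191 and 197 TPM. Ndufs4, whose loss causes a Leigh-like disease in mice, had 148 and 139 TPM, and Ndufa9, which has a dehydrogenase fold and binds NADPH, had 151 and 135 TPM.

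The 9 accessory subunits of the proximal membrane arm held 2 genes far above the other 7 in TPM. Ndufa3 (mm10 chromosome 7, 3617373 to 3620327) had 498 and 469 TPM, and Ndufc1 (chromosome 3, 51404677 to 51408988) had 488 and 451 TPM; both encode small proteins with a membrane-spanning helix. The other 7 lay between 109 and 159 TPM. They were led by Ndufa10, which has a nucleoside-kinase fold (157 and 161 TPM). Ndufa1 had 132 and 136 TPM, Ndufs5, on the intermembrane face, 118 and 108 TPM, and Ndufa13, also known as GRIM-19, 116 and 103 TPM. The group summed to 1875 ± 77.2 TPM with a median of 143 TPM. In expected counts, Ndufa10 (5518 and 6013) and Ndufa13 (3750 and 3800) exceeded Ndufa3 (3458 and 3741) and Ndufc1 (3054 and 3256). The mean transcript length in replicate 1 was 348 bases for Ndufa3 and 323 bases for Ndufc1, against 1350 for Ndufa10 and 1251 for Ndufa13.

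The 10 accessory subunits of the distal membrane arm had an SD of 0.94 on the log2 scale, against 0.84 for those of the proximal arm; by the second quantification the order turned, with 0.86 and 0.89. Ndufb8 (chromosome 19, 44548572 to 44555440) had 428 and 402 TPM, and Ndufb9, one of the LYR-motif subunits that hold an acyl carrier protein, had 374 and 348 TPM. At the other end, Ndufb3 (chromosome 1, 58586384 to 58595964) had 61.9 and 57.6 TPM and Ndufb4 (chromosome 16, 37647170 to 37654453) had 66.1 and 66.4 TPM. Ndufb3 and Ndufb4 were the lowest genes of the complex by the first quantification. The group summed to 1986 ± 88.5 TPM.

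Ndufab1, the mitochondrial acyl carrier protein, is present in both arms and also serves mitochondrial fatty acid synthesis. It had 241 and 234 TPM, within the range of the genes whose products occur in a single place. Ndufa4, long listed with complex I and now counted as a subunit of complex IV, was the highest of all 38 genes by the first quantification, at 573 and 542 TPM (558 ± 22.1; chromosome 6, 11900292 to 11907497). By the second it had 451 and 421 TPM, a mean below those of Ndufa3, Ndufb8 and Ndufc1. Its relative Ndufa4l2, known from cells short of oxygen, was the lowest, at 1.92 and 1.90 TPM from 45 and 51 expected counts. Without Ndufa4l2, the highest gene stood 9.33-fold above the lowest, and without Ndufa4 as well, 8.08-fold.

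Beside the other complexes, the complex I genes were lower in median level, a description with no test. Their median was 189 TPM, against 242 TPM for the 4 genes of complex II, 338 TPM for 9 of complex III, 381 TPM for 15 of complex IV and 331 TPM for 15 of ATP synthase. These lists include tissue variants that the muscle held at low level, such as Cox6b2 and Cox4i2, both under 1 TPM. The SD on the log2 scale was 1.30 for complex I, or 0.73 without Ndufa4l2. It was 0.45 for complex II, 0.51 for complex III, 1.71 for ATP synthase and 3.90 for complex IV with those variants included. By the second quantification it was 1.32 for complex I (0.73 without Ndufa4l2) and, in the same order, 0.60, 0.48, 0.86 and 3.97. Atp5g2 of ATP synthase had a mean of 7.45 TPM by the first quantification and 167 TPM by the second. The 7 mitochondrially encoded ND genes, whose products form the membrane part of the core, had a median of 2411 TPM, from 850 TPM (mt-Nd6) to 4762 TPM (mt-Nd1). The 17 assembly factors were all detected at a median of 14.2 TPM. Ecsit was the highest of these at 42.9 and 40.3 TPM and Nubpl, which delivers iron-sulfur clusters, the lowest at 2.21 and 2.16 TPM, so the highest assembly factor lay below the lowest structural subunit other than Ndufa4l2.

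The 2 quantifications gave much the same order of genes, with a rank correlation of 0.937 across the 38 genes, and in 31 genes the higher value was at most 25% above the lower. The levels of 2 genes were over 1.5-fold apart, Ndufb4 and Ndufs3, against 4.03% of 9686 detected protein-coding genes. Ndufb4 had 66.1 and 66.4 TPM by the first and 166 and 161 TPM by the second, 2.47-fold more, which took it from among the lowest genes into the middle. Ndufs3 had 260 and 240 TPM by the first and 434 and 389 TPM by the second, 1.65-fold more. In both genes the animals were closer to each other than the quantifications were.

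**Figure D2:**
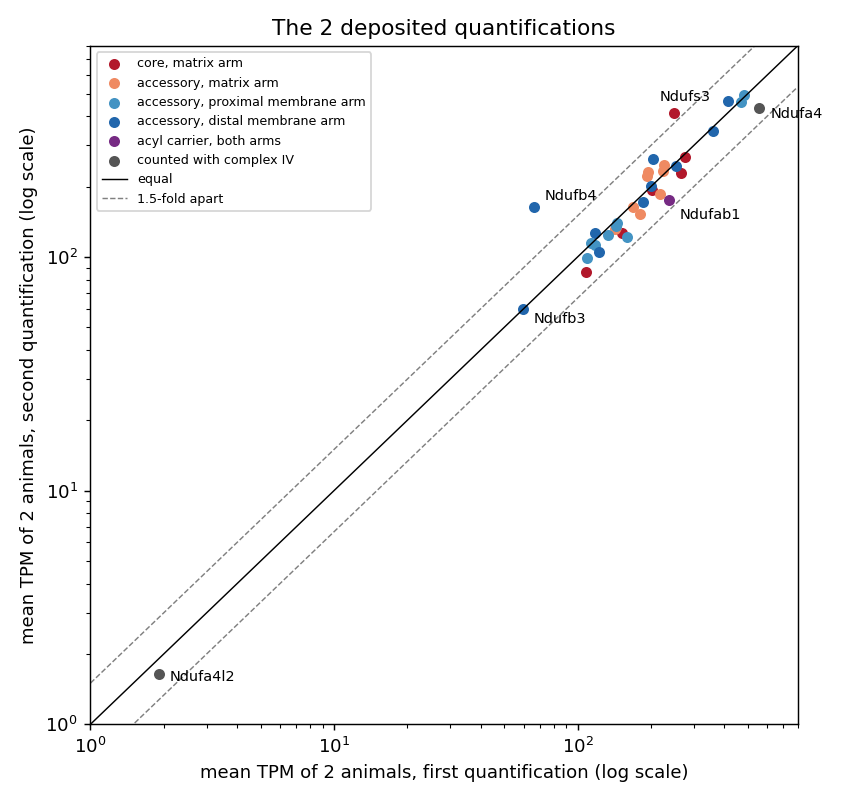
Mean TPM of the 2 animals by the second quantification against the first, both on log axes, with lines for equality and for 1.5-fold. Ndufb4 and Ndufs3 lie above the upper dashed line and the other genes shown lie between the dashed lines.

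Ndufb4 has a copy elsewhere in the genome. Ndufb4c, a processed pseudogene (chromosome 15, 73809507 to 73809896), matched an Ndufb4 transcript without a difference over 390 bases. The first quantification gave Ndufb4c 257 and 247 TPM, above Ndufb4 itself, and the second 28.6 and 27.9 TPM. Gene and copy together had 324 and 314 TPM by the first and 195 and 189 TPM by the second, so the level of Ndufb4 is uncertain, and with it the place of Ndufb4 as one of the lowest genes.

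In all, 8 genes had a close copy elsewhere (at least 95% identity over at least 200 bases), 9 copies in total, all annotated as pseudogenes, and 4 of the copies reached 1 TPM in both animals. Beside Ndufb4c these were copies of Ndufa12, Ndufab1 and Ndufs5. Only the complex I genes were searched for copies, so no share over all genes stands beside these counts. Gm15920, 99.5% identical to Ndufa12 over 402 bases, had 54.9 and 52.1 TPM by the first and 148 and 132 TPM by the second quantification. Gm4459, 99.8% identical to Ndufab1 over 468 bases, had 2.31 and 2.83 TPM by the first and 60.2 and 53.3 TPM by the second; Ndufab1 and this copy together had 243 and 237 TPM by the first and 234 and 229 TPM by the second. Ndufab1 alone was at 174 and 175 TPM by the second, so for this gene the sum was closer between the quantifications than the gene was. For Ndufa12 and Gm15920 the sum was not closer, with 283 and 260 TPM by the first and 345 and 307 TPM by the second, beside 228 and 208 TPM and 197 and 176 TPM for Ndufa12 alone. BC002163, 99.4% identical to Ndufs5 over 319 bases, had 57.8 and 64.2 TPM by the first and 71.0 and 64.0 TPM by the second. Its sum with Ndufs5 was 176 and 172 TPM by the first and 190 and 174 TPM by the second, further apart than Ndufs5 alone (118 and 108 TPM against 119 and 111 TPM). How many of these reads came from the pseudogenes cannot be told from the tables. The deposited posterior SD of the count, a measure of this uncertainty within 1 program, exceeded 1% of the count for Ndufb4 (2.26%) and Ndufs5 (1.39%) alone, and was at most 0.1% for 34 genes.

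Exonic bases were shared with another annotated gene by 17 of the 38, by 15 with a gene on the opposite strand and by 3 with one on the same strand. The share of all genes with such an overlap was not counted, so these numbers show no excess. The longest overlap was 616 bases, between Ndufb5 and Mrpl47, a mitochondrial ribosomal protein gene with 10.8 and 8.44 TPM beside 265 and 240 TPM for Ndufb5. The 3 same-strand partners, Gm20538, Gm42420 and Gm49356, had at most 1.01 TPM. Ndufb1-ps, which the rule leaves out for want of a protein-coding transcript in this annotation, had 81.7 and 76.7 TPM, within the range of the complex I genes.

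Of the 38 genes, 32 had 2 or more annotated transcripts, and a single transcript held a median of 83.6% of a gene's TPM, against 68.7% over the same kind of gene in general. In 14 genes it held 90% or more. The dominant transcript was the same in both animals for 31 of the 32 and the same by both quantifications for 25 of the 32; over 9238 protein-coding genes with 2 or more transcripts, it differed between the quantifications for 18.3%. The exception between animals was Ndufb10. Its coding transcript Ndufb10-201 had 114 TPM in replicate 1 and 101 TPM in replicate 2 (56.3% and 48.7% of the gene). The retained-intron transcript Ndufb10-204 had 86.9 and 104 TPM. By the second quantification Ndufb10-204 was dominant in both animals, with 65.0% and 68.2%.

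In 6 of the 32 genes the dominant transcript was not annotated as protein-coding, against 7.17% of the 9238 genes. By the second quantification this held for 9, the same 6 with Ndufa10, Ndufb10 and Ndufs3, and no share over all genes was counted. The highest of the 6 were Ndufa3 and Ndufc1. Ndufa3-204, a transcript of 343 bases annotated as a target of nonsense-mediated decay (the breakdown of messages with an early stop codon), held 95.4% and 96.3% of Ndufa3 TPM, and 89.9% and 90.1% by the second quantification. Of its bases, 97.1% lie within exons of the coding transcripts of the gene, 10 bases outside them. Ndufc1-203, a retained-intron transcript of 311 bases with 69 bases outside the coding exons, held 65.6% and 64.1% of Ndufc1, and 65.1% and 64.5% by the second. The 2 quantifications gave this transcript nearly the same share but placed the rest of Ndufc1 differently: the coding Ndufc1-204 held 29.9% and 30.4% by the first and was listed at 0 by the second. Transcripts of Ndufc1 not annotated as coding together held 69.8% and 69.3% by the first and 99.9% in both animals by the second.

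The other 4 were less even. Ndufs4-204, also annotated for nonsense-mediated decay, held 76.1% and 64.0% of Ndufs4 by the first and 91.3% and 87.0% by the second. The retained-intron transcript Ndufb4-202 held 68.0% and 82.9% of Ndufb4 by the first and 54.0% and 58.8% by the second. By the first, the coding Ndufb4-201 had 503 and 311 expected counts, and the copy Ndufb4c had 2095 and 2305. The part of this copy in the Ndufb4 shares was not tested. Ndufab1-205, with a retained intron, held 34.1% and 40.8% by the first and 81.5% and 82.6% by the second. For Ndufa5 the quantifications chose different transcripts: Ndufa5-204 held 70.5% and 75.3% by the first and was listed at 0 by the second, which gave 53.8% and 61.0% to Ndufa5-203, in turn listed at 0 by the first. In Ndufa10, which had the lowest dominant share, the coding Ndufa10-201 held 35.9% and 34.3% by the first, while the second gave most to Ndufa10-207 (46.7% and 39.1%). Transcripts of Ndufa10 not annotated as coding together held 63.4% and 65.5% by the first and 65.6% and 62.1% by the second. In Ndufs3 the coding Ndufs3-201 held 58.0% and 56.8% by the first but 19.1% and 20.3% by the second, which gave 58.7% and 59.2% to Ndufs3-204, a processed transcript of 409 bases. Ndufs3 is also a gene whose total differed between the quantifications.

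Transcripts without a protein-coding annotation held 25.5% of complex I TPM in replicate 1 and 26.7% in replicate 2 (26.1 ± 0.846%), against 11.1% and 11.3% over all protein-coding genes. The second quantification gave 33.5% and 35.0%, against 13.7% and 13.8%. Retained-intron transcripts held 10.7% and 11.1% of the first total, transcripts annotated for nonsense-mediated decay 8.59% and 8.73%, and processed transcripts 6.24% and 6.84%. Measured in expected counts, which are not divided by length, the share was 14.9% and 15.6%, against 3.34% and 3.49% over all protein-coding genes. All of these are shares of summed values, so genes at high level weigh most in them. Ttn alone had 7008746 expected counts in replicate 1 and 6334929 in replicate 2. The shares of all protein-coding genes were not matched for level or for the number of annotated transcripts. The share in counts was thus lower than in TPM for the complex I genes and for protein-coding genes in general. The part of short transcript models in these shares was not tested.

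**Figure D3:**
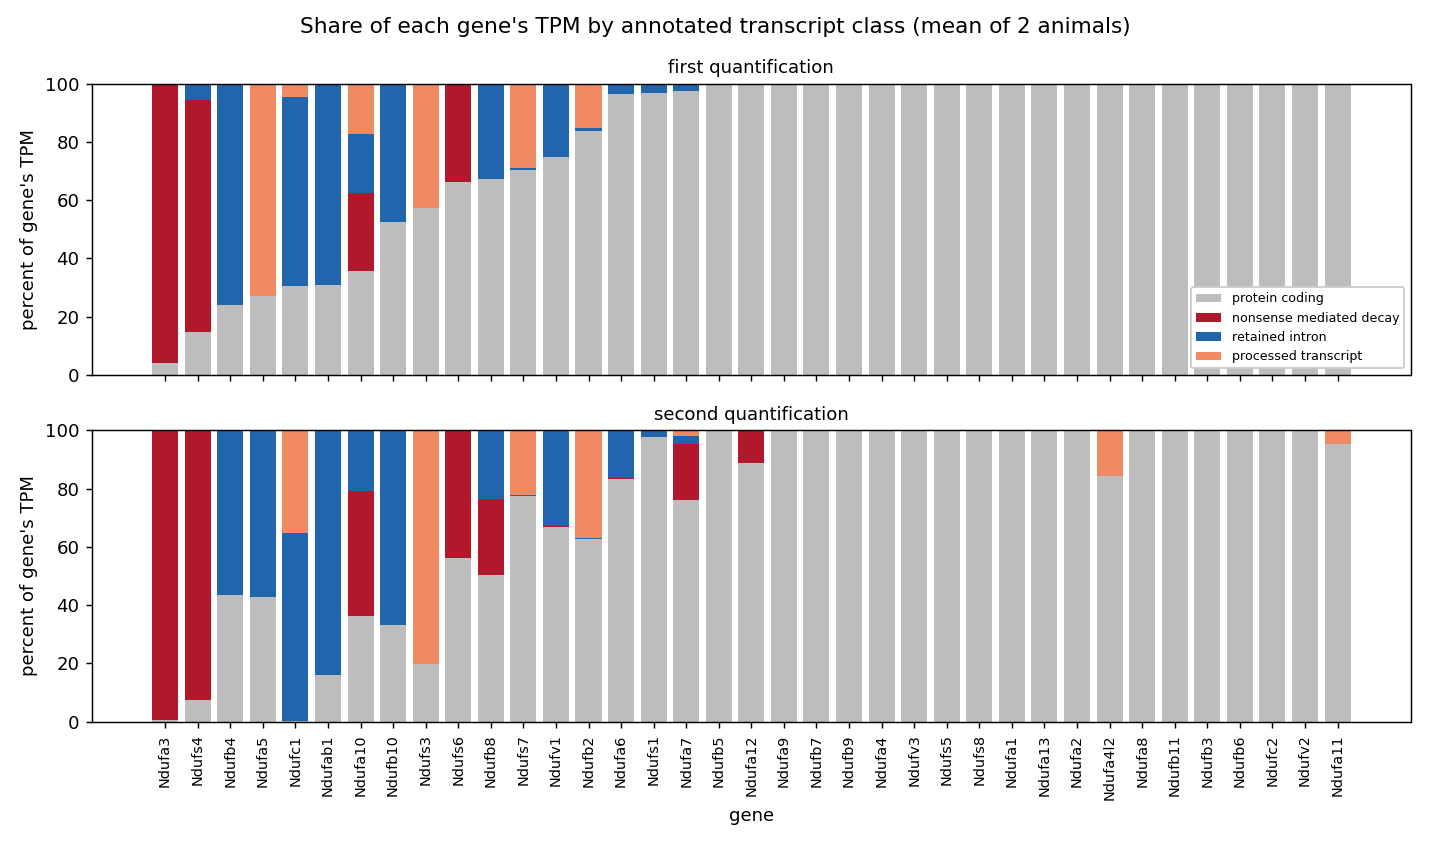
Share of each gene's TPM (mean of the 2 animals, percent) held by protein-coding, nonsense-mediated decay, retained-intron and processed transcripts, by the first (top) and second (bottom) quantification. Ndufa3, Ndufs4, Ndufb4, Ndufa5, Ndufc1, Ndufab1 and Ndufa10 lie at the left, with most of their TPM in transcripts not annotated as coding in both panels.

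Ndufv3 exists as a short and a long protein, which differ by 1 exon. The exon is the third of transcript Ndufv3-201 (mm10 chromosome 17, 31527310 to 31528401) and consists of 1092 bases, all coding. The bases around the junction are printed because they tell the 2 forms apart: both start with the end of the same exon, and capitals mark what follows the junction.
Ndufv3-201, long form: aaagtgtgctcaaagATGTGGGAGCAGAGG
Ndufv3-202, short form: aaagtgtgctcaaagAGCCCGAGCCGACTG

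By estimated transcript levels, the muscle held nearly all Ndufv3 RNA as the short form. Protein was not measured, and reads over the printed junctions were not counted. Ndufv3-202 had 240 TPM in replicate 1 and 207 TPM in replicate 2, 99.0% of the gene in each, and Ndufv3-201 had 1.85 and 1.89 TPM, 0.76% and 0.90%. The long form rested on 77.0 and 90.1 expected counts, above the 3 counts that a count of 0 allows. The second quantification gave the long form 0.611% and 0.717%. The animals and the quantifications lay on the same side by a wide margin.

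Between the animals, the complex I genes differed little and in the same direction. Ratios were taken from counts scaled by TMM, which sets the bulk of genes to no change, for the 37 genes with a mean of at least 50 counts (Ndufa4l2 fell below), among 11125 genes. Of the 37, 34 were higher in replicate 2, against 50.9% of all genes tested. Their median log2 ratio was 0.08, against 0.00 for all genes, and their ratios ran from -0.04 to 0.22 with an SD of 0.06, against 0.36 for all genes. None was over 25% higher in either animal than in the other, against 17.6% of all genes, and none over 2-fold higher, against 1.38%. The highest 5 were Ndufs6 and Ndufa1 (both 0.22), Ndufb10 (0.16), Ndufa11 (0.14) and Ndufb11 (0.12). The 3 below 0 were Ndufb4 (-0.04), Ndufv3 (-0.03) and Ndufa2 (-0.02), each nearer to 0 than its standard error of counting. By the second quantification Ndufb4 (0.08) and Ndufa2 (0.03) lay above 0, while Ndufv3 (-0.04) and Ndufa13 (-0.003) lay below. All 7 core subunits were higher in replicate 2, by 0.04 to 0.12. The ratio exceeded 2 standard errors of counting for 22 of the 37 genes, against 34.5% of all genes tested. But with 1 library per animal the counting error is not the spread between animals. All genes tested had a median level of 7.155 TPM, against 193.6 TPM for the 37. The SDs and shares of all genes given here were not matched for level.

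The direction depended on the scaling. With the ERCC spike-ins as the reference, 4 of the 37 were higher in replicate 2, against 22.7% of all genes, and the median was -0.05, against -0.12 for all genes. Spike-in scaling moved the median of all genes by -0.13. It moved every gene by nearly the same amount, so the distance of the complex I median from that of all genes, 0.07, could not change with it. TPM was lower in replicate 2 for 33 of the 38 genes, against 80.1% of the detected protein-coding genes, so most genes shared that direction.

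**Figure D4:**
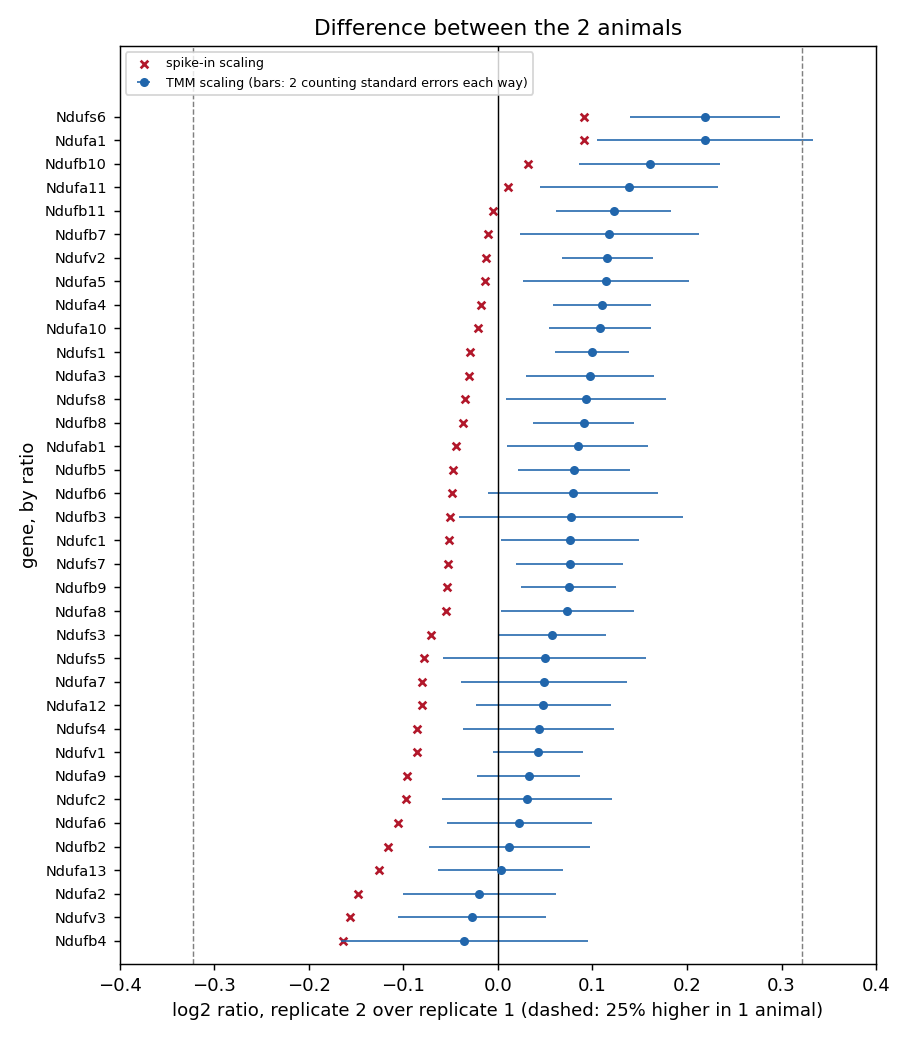
log2 ratio of replicate 2 over replicate 1 for 36 genes, with TMM scaling (points, with bars of 2 counting standard errors each way) and with spike-in scaling (crosses). All points and crosses lie within the dashed lines, which mark a value 25% higher in replicate 2 or in replicate 1; 33 points and 4 crosses lie above 0.

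Most genes of the other complexes lay on the same side as the complex I genes between the animals. By TMM scaling 4 of 4 complex II genes (median 0.12), 9 of 9 of complex III (0.11), 12 of 13 tested of complex IV (0.11), 15 of 15 of ATP synthase (0.09) and 16 of 17 assembly factors (0.15) were higher in replicate 2. The ND genes of mitochondrial DNA were higher in 4 of 7, with a median of 0.03 and mt-Nd4l at -0.36. All 9 markers of slow and oxidative fibres (Myh7, Myl2, Myl3, Tnni1, Tnnc1, Tnnt1, Atp2a2, Myoz2, Mb) were higher in replicate 2, by 0.13 to 0.33 with a median of 0.24. Of the fast or general fibre markers 2 of 7 were higher, with a median of -0.01, and for 1 of the 2, Mylpf, the ratio was only 1.7e-06. With DESeq2 size factors in place of TMM, 4 of these 7 and all 9 slow and oxidative markers were higher. With spike-in scaling these counts were 1 of 4 for complex II, 2 of 9 for complex III, 5 of 13 for complex IV, 3 of 15 for ATP synthase, 9 of 17 for the assembly factors, 1 of 7 for the ND genes, 8 of 9 for the slow and oxidative markers and 0 of 7 for the fast or general markers.

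By TMM scaling, most markers of other cells of the tissue went the other way from the complex I genes. Schwann cell markers summed to 57.3 TPM in replicate 1 and 12.7 TPM in replicate 2 and were lower in replicate 2 in 5 of 5 tested of 8 (median -2.10), with no marker at 0 in both animals. Fibroblast markers summed to 281 and 215 TPM and were lower in 6 of 6 (median -0.27). Endothelial markers summed to 53.5 and 44.0 TPM and were lower in 4 of 5 (median -0.18). With spike-in scaling, 0 of 5 Schwann, 0 of 6 fibroblast and 0 of 5 endothelial markers were higher in replicate 2 (medians -2.23, -0.39 and -0.31). Most complex I genes were then on the same side, with 4 of 37 higher and a median of -0.05. The part of the mix of fibres and other cells in the small ratio of the complex I genes was not tested. In bulk tissue, fewer cells of a type and less RNA per cell cannot be told apart.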

How the data were processed

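The authors deposited, for each library, gene and transcript tables in the RSEM layout (first quantification) and a transcript table in the kallisto layout (second); per the file headers and descriptions, both used mm10 and GENCODE M21, and the programs' names were not given in the sources used here. As deposited, expected counts (estimated counts) are not normalized. The deposited TPM values are scaled by effective length over all features. The percent values deposited by the authors give a transcript's share of its gene, and the deposited scores used are posterior means of TPM and posterior SDs of counts.

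Counts were rounded for edgeR 4.0.16 in R 4.3.3 (TMM, log2 CPM with prior count 2, mean count of at least 50); DESeq2 1.42.0 size factors were an alternative. Second-quantification transcripts were summed to genes. Spike-ins and other features that are no genes (0.255% and 0.277% of counts) were kept out. Copies were found with BLAST 2.17.0. Classes, coordinates and exons came from GENCODE M21 and promoters from RefSeq. With 1 group, no test was possible. Ratios were tested on simulated data. All genes could be named, but the values of 1 are not reported here and are left out of the figures. The members, the rule and the comparison lists were chosen with earlier results of these data known, and the promoter runs and windows shown were chosen after their matches were seen. Allele of origin was not analysed here.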

Additional observations from a re-analysis of the deposited data

How the results depend on the processing

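No paired analysis was possible because both animals belong to the same group and no second group shares their numbers. Spike-in scaling turned the median log2 ratio of the complex I genes from 0.077 to -0.051 and the number higher in replicate 2 from 34 to 4 of 37. DESeq2 size factors, a prior count of 0.5, lower count minimums and the second quantification gave medians of 0.08 to 0.09 and 34 or 35 genes. The lower count minimums let in Ndufa4l2, which was higher in replicate 2, so the 35 there were of 38 genes. The second quantification moved the median share of the dominant transcript from 83.6% to 73.1% and the share of TPM outside protein-coding transcripts from 26.1% to 34.3%. Rescaled over nuclear protein-coding genes, the summed level was 17400 TPM, since the total it is divided by is smaller. The SD of log2 TPM between genes was 1.30, 1.32 by the second quantification, 1.27 with posterior means and 0.73 without Ndufa4l2, an alternative chosen after seeing the data; the ratio of the 90th to the 10th percentile was 3.46. With 1 animal left out, the summed level was 7691 to 8218 TPM, the SD 1.29 to 1.30, the dominant share 83.01% to 84.34% and the share outside protein-coding transcripts 25.5% to 26.7%. At thresholds of 5 or 10 TPM, 37 of 38 genes were detected, all but Ndufa4l2. With 2 animals, the SDs are themselves uncertain, and they measure only the spread between these samples.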
